A study of Mus musculus with 16 samples.

Results

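The 10 genes described here are 6 annexins (Anxa1, Anxa2, Anxa3, Anxa5, Anxa6 and Anxa7) and 4 S100 genes (S100a4, S100a6, S100a10 and S100a11), out of 16674 genes tested on Agilent arrays of mouse liver RNA. They were taken by name: every non-control probe carrying one of the 10 symbols entered, which gave 15 probes. Of these, 14 were kept: their signal stood well above background in 4 or more of the 24 channels read, and every gene had at least 1 kept probe. The brightest kept probe stands for its gene. For each of the 10 genes that probe was well above background in all 24 channels of experiments 1 to 6, so the filter removed no gene and did not depend on any genotype, and none was saturated.

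The study addresses what loss of autophagy does to liver gene expression and how far the change needs the transcription factor Nrf2, which activates antioxidant and detoxification genes. Its genotypes are wild type, Nrf2-/- (Nrf2 KO), Atg7F/F:Mx1-Cre (Atg7 cKO, a conditional knockout of an enzyme required to form autophagosomes) and Atg7F/F:Mx1-Cre:Nrf2-/- (double knockout). The pIpC injections that switch on Mx1-Cre were given at 8 weeks of age to knockout and control mice alike, so every group including wild type had received this interferon inducer, and livers were taken 4 weeks later. The 16 arrays form 8 experiments of 2 arrays with the dyes swapped, and each comparison has 2 experiments. Wild type was the partner of Nrf2 KO in experiments 1 and 4, of Atg7 cKO in 2 and 5, and of the double knockout in 3 and 6. Experiments 7 and 8 paired the double knockout with Atg7 cKO directly. Mx1-Cre acts wherever interferon signalling reaches, which includes hepatocytes and also blood and immune cells, and Nrf2-/- is a deletion in every cell. The RNA is of whole liver, so more cells of a type and more RNA per cell cannot be told apart. The number of animals behind a channel is not given in the sources used here, and p-values measure the spread between experiments, which may in part be technical.

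Annexins are cytosolic proteins that bind acidic phospholipids when calcium rises, and they act in membrane repair, vesicle traffic and the link between membranes and actin. S100 proteins are small EF-hand calcium sensors that mostly work as dimers and switch partner proteins on or off. The families meet in fixed pairs, above all S100a10 with Anxa2 and S100a11 with Anxa1. In healthy liver many of these genes are stronger in bile duct, stellate, endothelial and immune cells than in hepatocytes, and several are known to rise in injured or fibrotic liver.

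The 4 S100 genes lie on chromosome 3 of build mm9, in a cluster of S100 genes. The S100a4 probe (position 90409842 to 90409902) and the S100a6 probe (90418160 to 90418219) were 8.26 kb apart, and the S100a11 probe (93330017 to 93330076) and the S100a10 probe (93368437 to 93368496) were 38.4 kb apart. Between the S100a6 and S100a11 probes lay 2910 kb. Anxa5 is on the same chromosome (36348065 to 36348124), and the other annexins are spread over chromosomes 5, 9, 11, 14 and 19.

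The probes of Anxa2 and S100a6 are shown because both genes carry main results and the probes read the coding part of the messenger RNA. The brighter Anxa2 probe matches chromosome 9 from 69337510 to 69337569 (mm9, plus strand). The second one matches 69330846 to 69331620, which spreads its 60 bases over 775 bases of genome, so it spans at least one intron and reads spliced RNA. The S100a6 probe covers the part of the message that encodes an EF-hand, the calcium-binding loop. Sequences are those printed in the scanner files.
Anxa2, brighter probe: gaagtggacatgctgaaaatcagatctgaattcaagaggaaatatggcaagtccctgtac
Anxa2, second probe: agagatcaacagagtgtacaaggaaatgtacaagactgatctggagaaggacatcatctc
S100a6 probe: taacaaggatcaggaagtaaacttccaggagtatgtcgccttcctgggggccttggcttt

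Promoter sequences from RefSeq (build GRCm38.p6, the 250 bases before the annotated start) were at hand for 7 of the 10 genes: Anxa1, Anxa2, Anxa5, Anxa7, S100a4, S100a6 and S100a11. Those of Anxa2 and S100a11 are shown because both genes rose in both Atg7-deleted genotypes and both windows hold the AP-1 letters TGANTCA, marked in capitals. Those of the neighbours S100a4 and S100a6 are shown because these genes had the highest ratios of the 10 in the double knockout.
Anxa2, chr9:69453433-69453682, plus strand: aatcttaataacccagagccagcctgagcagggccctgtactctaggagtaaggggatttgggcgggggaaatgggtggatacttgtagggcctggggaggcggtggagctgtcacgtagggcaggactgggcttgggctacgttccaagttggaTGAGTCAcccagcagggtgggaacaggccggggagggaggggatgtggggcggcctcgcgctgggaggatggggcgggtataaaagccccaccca
S100a11, chr3:93520246-93520495, plus strand: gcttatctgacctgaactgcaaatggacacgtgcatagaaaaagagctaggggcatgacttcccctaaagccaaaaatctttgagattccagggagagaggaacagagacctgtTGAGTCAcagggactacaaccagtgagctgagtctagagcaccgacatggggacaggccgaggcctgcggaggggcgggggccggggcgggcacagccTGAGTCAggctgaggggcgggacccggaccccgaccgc
S100a4, chr3:90603520-90603769, plus strand: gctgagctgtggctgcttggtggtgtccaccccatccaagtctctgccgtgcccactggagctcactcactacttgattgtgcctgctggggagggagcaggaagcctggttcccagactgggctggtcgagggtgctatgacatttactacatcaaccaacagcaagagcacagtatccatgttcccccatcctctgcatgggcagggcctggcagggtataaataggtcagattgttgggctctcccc
S100a6, chr3:90612644-90612893, plus strand: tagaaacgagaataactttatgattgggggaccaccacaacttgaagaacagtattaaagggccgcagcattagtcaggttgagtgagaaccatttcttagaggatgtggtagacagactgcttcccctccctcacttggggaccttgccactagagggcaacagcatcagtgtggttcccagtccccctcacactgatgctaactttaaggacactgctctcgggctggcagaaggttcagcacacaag

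The letters TGANTCA, read on both strands (the motif is its own reverse complement), stood 95 to 89 bases before the start of Anxa2. In S100a11 they stood 136 to 130 and 38 to 32 bases before it. Of all 32851 promoter windows of this length, 6.75% held them. The windows of Anxa1, Anxa5, Anxa7, S100a4 and S100a6 did not. Of these genes all but Anxa7 also rose in both Atg7-deleted genotypes, so the rise was not limited to genes with the letters. The antioxidant response element core TGACNNNGC, the motif read by Nrf2, was in none of the windows of the 7 genes on either strand, against 10.2% of all windows. A match is a description of letters and not of a bound factor, and its absence speaks only of these 250 bases.

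Before the results, 3 facts of the whole data set bear on these genes. Nfe2l2, which encodes Nrf2, had log2 ratios to wild type of -3.88 (Nrf2 KO), 1.20 (Atg7 cKO) and -3.71 (double knockout) at its brightest probe. A second Nfe2l2 probe went the same way, and the third read between -0.16 and 0.18 in all 6 experiments. At its brighter probe Atg7 read -0.80 (Atg7 cKO) and -0.73 (double knockout), and its second probe read between -0.16 and 0.01 in those 4 experiments. Whether any of these probes lies inside the deleted part is not given in the sources used here. Experiments 1 to 3 and 4 to 6 differ in sex-linked RNA: Ddx3y and Eif2s3y were well above background in all 12 channels of the first set and none of the second, and Xist in none of the first and all 12 of the second. Each comparison with wild type has 1 experiment from each set, so its 2 values are also the values within each set. The spread behind its p-values therefore includes any difference between the sets.

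In Atg7 cKO, 9 of the 10 genes were higher than in wild type and none was lower (limma, Benjamini-Hochberg adjusted p under 0.05). Of all genes tested, 39.4% were called in this comparison, with 23.2% of all genes called higher. The median log2 ratio of the 10 was 1.54, against 0.003 over all genes. The 9 were Anxa1, Anxa2, Anxa3, Anxa5, Anxa7 and all 4 S100 genes, and 7 of them had a mean past 2-fold. Anxa6 was not called.

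**Figure D1:**
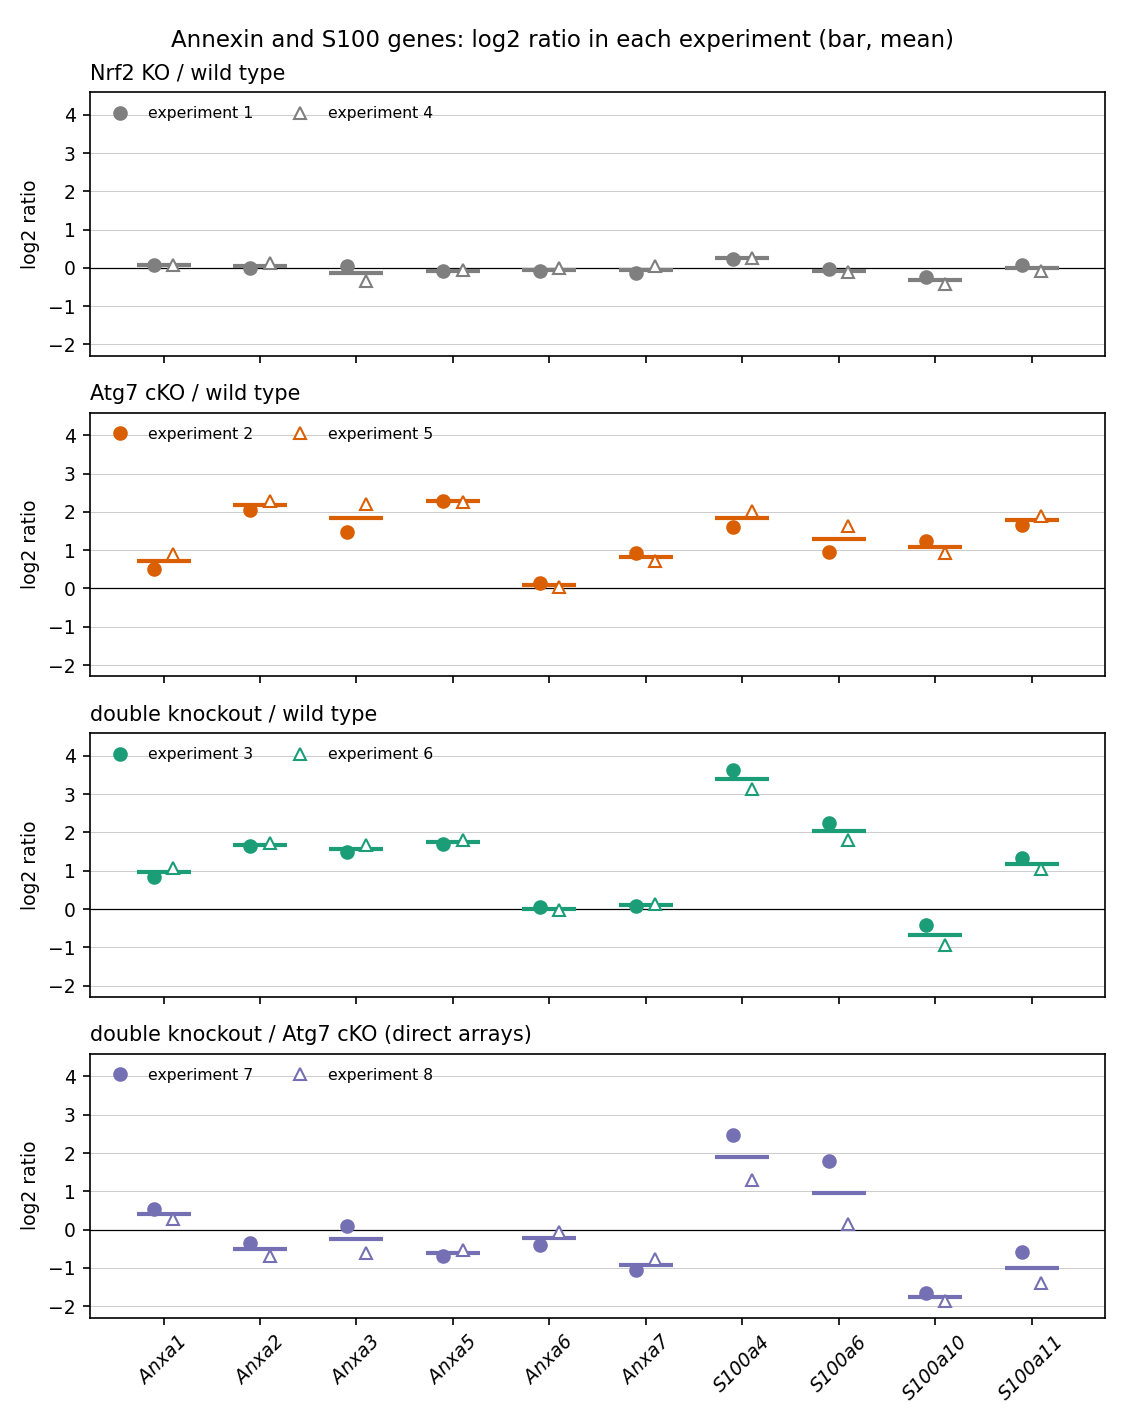
Log2 ratio of each annexin and S100 gene (x axis) in the 2 experiments of each comparison (filled circle and open triangle), with the mean as a bar; 1 panel per comparison. All Nrf2 KO values lie between -0.42 and 0.27, most genes stand far above 0 in Atg7 cKO, and S100a4 (3.64 and 3.14) and S100a10 (-0.41 and -0.93) lie at opposite ends in the double knockout.

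Among the annexins, Anxa5, which binds exposed phosphatidylserine and is widely used to stain dying cells, had the highest mean. Its log2 ratio was 2.29 in experiment 2 and 2.26 in experiment 5, a mean of 2.28 ± 0.03 (SD, n = 2) or 4.84-fold (limma adjusted p = 6.36e-05). On the level scale, the normalised log2 signal of its probe, wild type lay between 9.46 and 9.79 over 6 experiments and Atg7 cKO at 11.89 and 11.84, so the groups did not overlap.

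Anxa2, which links membranes to actin and holds plasminogen at the cell surface together with S100a10, read 2.06 and 2.29, a mean of 2.17 ± 0.16 (SD, n = 2) or 4.51-fold (adjusted p = 0.000221). Its level rose from 6.96 to 7.36 in the wild-type channels to 9.42 and 9.59. The second Anxa2 probe gave a mean of 1.62, in the same direction. Anxa3, an annexin of phagocytes and of growing epithelium, read 1.48 and 2.22 and thus differed more between its experiments, with a mean of 1.85 ± 0.53 (SD, n = 2; adjusted p = 0.00241).

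The remaining annexins moved less. Anxa7, an annexin of membrane fusion and calcium handling, read 0.94 and 0.73 (mean 0.83 ± 0.15, SD, n = 2; adjusted p = 0.00164). Anxa1, a glucocorticoid-induced protein that dampens leukocyte entry through formyl peptide receptors, read 0.52 and 0.91 (mean 0.71 ± 0.28, SD, n = 2; adjusted p = 0.00666). Anxa6, the large annexin with a doubled core, read 0.14 and 0.03, with an adjusted p of 0.247 and a 95% interval of -0.05 to 0.22 for its mean log2 ratio. Its dye orientations differed in sign in both experiments. With the knockout in Cy5 and then Cy3 it read -0.02 and 0.3 in experiment 2, and -0.2 and 0.26 in experiment 5. The interval rests on their averages and does not measure this gap.

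All 4 S100 genes were higher in Atg7 cKO. S100a4, a metastasis-associated protein found in fibroblasts and macrophages that binds non-muscle myosin, read 1.62 and 2.03, a mean of 1.83 ± 0.29 (SD, n = 2) or 3.55-fold (adjusted p = 0.00135). S100a11, the partner of Anxa1, read 1.65 and 1.90, or 3.42-fold (adjusted p = 0.000761). S100a6, also named calcyclin and known from proliferating cells, read 0.96 and 1.64, or 2.46-fold (adjusted p = 0.00528). S100a10, the partner of Anxa2, read 1.25 and 0.93, or 2.13-fold (adjusted p = 0.00431). Every one of the 8 single-experiment ratios was thus above 0, with the lowest at 0.93.

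The 9 calls held under all 15 alternative settings tried for each gene, leaving out either experiment included. One setting, median centring in place of loess, moved the median of all genes by 0.21 and added Anxa6 as higher (0.30, adjusted p = 0.01).

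In Nrf2 KO none of the 10 genes was called by limma, where 0.012% of all genes (2 of 16674, both lower) were. Against 616 of all genes, none of the 10 had an unadjusted p under 0.05. Their median log2 ratio was -0.04, against 0.004 over all genes. S100a10 had the lowest mean, from -0.23 in experiment 1 and -0.42 in experiment 4 (mean -0.32, 95% interval -0.69 to 0.04, adjusted p = 1). S100a4 had the highest, from 0.23 and 0.27 (mean 0.25, interval -0.12 to 0.63). The interval of Anxa2 was -0.13 to 0.25 and that of Anxa5 -0.20 to 0.06, so changes of the size seen in Atg7 cKO lie outside them. The widest intervals belonged to Anxa3 (-0.64 to 0.35) and S100a6 (-0.53 to 0.40).

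In the double knockout 7 of the 10 genes were higher than wild type and S100a10 was lower. Over all genes 37.1% were called, 21.2% as higher and 15.9% as lower. The median log2 ratio of the 10 was 1.38, against 0.005 over all genes, and Anxa6 and Anxa7 were not called. This comparison and that of Atg7 cKO may share wild-type RNA, so their values are set side by side and not counted as independent.

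S100a4 had the highest ratio of the 10 genes here: 3.64 in experiment 3 and 3.14 in experiment 6, a mean of 3.39 ± 0.35 (SD, n = 2) or 10.5-fold (adjusted p = 0.000672). Its level was 6.97 to 7.30 in wild type, 8.59 and 9.01 for Atg7 cKO, and 10.94 and 10.21 for the double knockout, 3 ranges with no overlap. S100a6 read 2.25 and 1.80, a mean of 2.03 ± 0.32 (SD, n = 2) or 4.07-fold (adjusted p = 0.00165). Its level was 6.99 to 7.32 in wild type and 9.57 and 8.81 in the double knockout, and the nearest Atg7 cKO value was 8.63.

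S100a10 went the other way. It read -0.41 and -0.93 against wild type (mean -0.67 ± 0.36, SD, n = 2; adjusted p = 0.0194), after 1.25 and 0.93 in Atg7 cKO. Its wild-type level differed between the sets, at 10.52, 10.73 and 10.63 in experiments 1 to 3 and 11.22, 11.68 and 11.86 in experiments 4 to 6. The double knockout levels of 10.21 and 10.93 were each below the 3 wild-type channels of their own set, but the second lay inside the wild-type range over both sets. The call was lost without experiment 6 (-0.41, adjusted p = 0.121) and with median centring (-0.45, adjusted p = 0.156), a setting that moved the median of all genes by 0.14.

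Anxa1, Anxa2, Anxa3, Anxa5 and S100a11 were higher here as well. Anxa5 read 1.70 and 1.81 (mean 1.75 ± 0.08, SD, n = 2; adjusted p = 0.000321) and Anxa2 1.64 and 1.73 (mean 1.68 ± 0.06, SD, n = 2; adjusted p = 0.000672). Anxa3 read 1.48 and 1.68 (adjusted p = 0.00376), S100a11 1.33 and 1.04 (adjusted p = 0.0014) and Anxa1 0.84 and 1.08 (adjusted p = 0.00296). Anxa7, called in Atg7 cKO, read 0.09 and 0.13 (mean 0.11, 95% interval -0.08 to 0.30, adjusted p = 0.299). Anxa6 read 0.04 and -0.02 (interval -0.12 to 0.14).

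**Figure D2:**
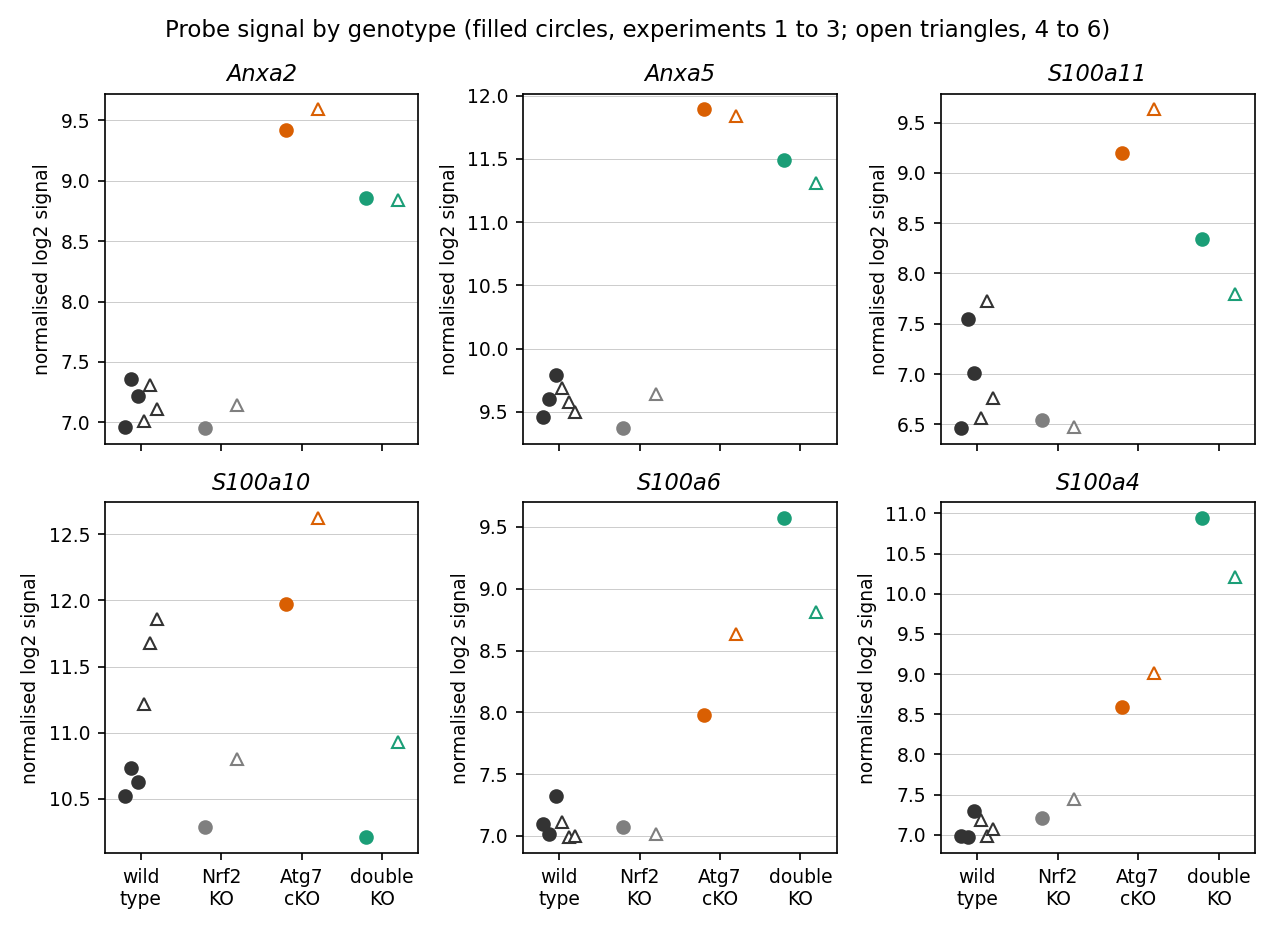
Normalised log2 signal (y axis) of 6 genes by genotype (x axis), 1 point per experiment, filled circles for experiments 1 to 3 and open triangles for 4 to 6. S100a4 climbs from wild type (6.97 to 7.30) over Atg7 cKO to the double knockout (10.94 and 10.21), while S100a10 is highest in Atg7 cKO (11.97 and 12.62) and its wild-type channels split by set.

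For Anxa2 and S100a11 the wild-type level also followed the RNA on the other channel. The S100a11 wild-type channels read 6.46 and 6.56 beside Nrf2 KO, 7.01 and 6.76 beside the double knockout, and 7.55 and 7.73 beside Atg7 cKO, the order of the partner's own level. The Anxa2 wild-type channels read 6.96 and 7.01, then 7.22 and 7.11, then 7.36 and 7.31 in the same order. What this owes to the wild-type RNA used or to the arrays was not tested.

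The direct arrays asked the Nrf2 question without wild type in between. On them 1 of the 10 genes was higher in the double knockout than in Atg7 cKO and 4 were lower, where 14.8% of all genes were called, 6.72% as higher and 8.07% as lower. S100a4 was the one higher: 2.48 in experiment 7 and 1.29 in experiment 8, a mean of 1.89 ± 0.84 (SD, n = 2) or 3.69-fold (adjusted p = 0.0155). S100a10 fell most, with -1.67 and -1.87, a mean of -1.77 ± 0.14 (SD, n = 2) or 3.41-fold lower (adjusted p = 0.00242).

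The other genes called lower were annexins and S100a11. Anxa7 read -1.06 and -0.77 (mean -0.92 ± 0.20, SD, n = 2; adjusted p = 0.0116), Anxa5 read -0.69 and -0.53 (mean -0.61 ± 0.12, SD, n = 2; adjusted p = 0.0143), and S100a11 read -0.60 and -1.41 (mean -1.0 ± 0.57, SD, n = 2; adjusted p = 0.0382). Anxa2 missed the threshold at -0.36 and -0.68 (mean -0.52, 95% interval -0.85 to -0.20, adjusted p = 0.0507). S100a6 had the widest gap of the 10 between its experiments, 1.78 against 0.14 (mean 0.96 ± 1.16, SD, n = 2; adjusted p = 0.152). For Anxa1 (0.54 and 0.28, adjusted p = 0.104), Anxa3 (0.10 and -0.61, adjusted p = 0.526) and Anxa6 (-0.40 and -0.06, adjusted p = 0.31) no difference was called. Only S100a10 was called without experiment 7, and none of the 10 in a fit of experiments 7 and 8 alone, where 6 had an unadjusted p under 0.05. In that fit 3775 of all 16674 genes had such a p.

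The same difference can be taken through wild type from experiments 1 to 6, which are other arrays but may carry the same RNA. The processing differs too: these ratios carry an offset that shrinks those of dim genes, and the direct ones are the deposited ratios. Through wild type 4 of the 10 were called, where 4.96% of all genes were, 1.75% as higher and 3.21% as lower. S100a4 was higher by 1.56 (adjusted p = 0.0262), and S100a10 fell by 1.76 (adjusted p = 0.0201), Anxa7 by 0.72 (adjusted p = 0.0313) and Anxa5 by 0.53 (adjusted p = 0.0265). Not called were Anxa2 (-0.49, adjusted p = 0.0715), S100a11 (-0.59, adjusted p = 0.0904), S100a6 (0.73, adjusted p = 0.194), Anxa1 (0.25), Anxa3 (-0.27) and Anxa6 (-0.08). Within each set the differences kept their sign for every called gene: S100a4 2.02 (experiment 3 minus 2) and 1.11 (6 minus 5, on 1 slide), S100a10 -1.66 and -1.86, Anxa7 -0.85 and -0.60, Anxa5 -0.59 and -0.45. S100a6 gave 1.29 in the first set and 0.16 in the second. The count fell to 0 without experiment 1, 2 or 4, to 1 without experiment 3 and to 2 without experiment 5 or 6. With slide as a block only S100a10 was called, and S100a4 (1.40, adjusted p = 0.0933), Anxa7 (-0.74, adjusted p = 0.104) and Anxa5 (-0.51, adjusted p = 0.104) were not.

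**Figure D3:**
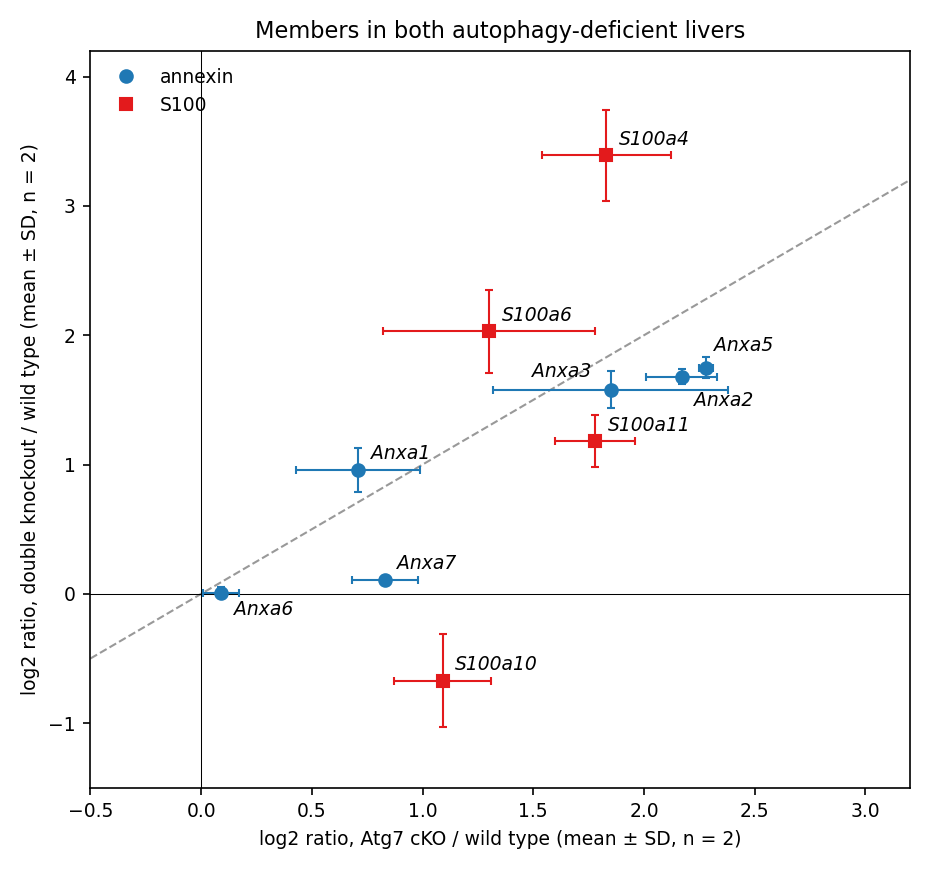
Mean log2 ratio to wild type in Atg7 cKO (x axis) against the double knockout (y axis) for the 10 genes, with SD bars over 2 experiments and a dashed line of equal values. S100a4 (1.83 and 3.39) and S100a6 (1.30 and 2.03) lie above the line, S100a10 (1.09 and -0.67) and Anxa7 (0.83 and 0.11) well below it.

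The interaction, which subtracts the Nrf2 KO effect as well, was called by limma for none of the 10 genes, where 0.72% of all genes were called (0.132% as higher, 0.588% as lower). Unadjusted p-values of the interaction were under 0.05 for 6 of the 10 and for 2413 of all 16674 genes. Its values were -1.44 for S100a10 (95% interval -2.07 to -0.80, adjusted p = 0.0911), 1.31 for S100a4 (0.66 to 1.96, adjusted p = 0.114), -0.69 for Anxa7 (adjusted p = 0.111) and -0.46 for Anxa5 (adjusted p = 0.112). With the sets as a block, S100a10 was called (-1.44, adjusted p = 0.0233), and with slide as a block none of the 10 and 0 of all genes were.

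Anxa7 rests on 1 probe of 3. The brightest (chromosome 14, 21275240 to 21275299, mm9) gave the values above, while a probe on a cDNA clone (21278155 to 21278214) had means of 0.26 in Atg7 cKO and -0.05 on the direct arrays, and another (21290387 to 21290446) had -0.07 and 0.48. With the mean of the 3 probes the difference through wild type was -0.22 (adjusted p = 0.171) and the direct one -0.16 (adjusted p = 0.368). The files do not say whether the clones belong to the main Anxa7 transcript. The second Anxa6 probe gave -0.05 in Atg7 cKO, close to the first, and the second Anxa3 probe, also on a clone, was well above background in none of the 24 channels and was left out.

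The other annexins moved little. Of 6 listed, 5 were measured (Anxa10 was not), with a median log2 ratio of 0.22 for Atg7 cKO and 0.09 for the double knockout. In Atg7 cKO 3 were higher: Anxa4, an annexin of ductal and secretory epithelium, at 0.45 (adjusted p = 0.00397), Anxa13 at 0.30 (adjusted p = 0.00601) and Anxa9 at 0.22 (adjusted p = 0.0474). In the double knockout Anxa4 alone was (0.35, adjusted p = 0.00845). On the direct arrays Anxa8 alone was lower (-1.98, adjusted p = 0.0457), beside 8.07% of all genes, at a probe well above background in 8 of 24 channels. The same difference through wild type was -0.23 (adjusted p = 0.204), from ratios processed with an offset that shrinks those of dim genes, so the 2 values are not on the same scale. Anxa8 is named after its value was seen.

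Of 13 other S100 genes 9 were measured, with 3 higher and 2 lower in Atg7 cKO and 2 higher and 1 lower in the double knockout. Of all genes 23.2% were called higher and 16.2% lower in Atg7 cKO, and 21.2% and 15.9% in the double knockout. S100a8 and S100a9 together form calprotectin, the main cytosolic protein of neutrophils and of newly arrived monocytes. S100a9 read 1.07 and 1.60 in Atg7 cKO (mean 1.33, adjusted p = 0.0302), against 3.78 and 2.76 in the double knockout (mean 3.27, adjusted p = 0.0023). Its partner S100a8 read 0.41 and 0.89 (mean 0.65, adjusted p = 0.0422), then 2.25 and 1.62 (mean 1.94, adjusted p = 0.00182). Both read higher in each double knockout experiment than in either of Atg7 cKO, as S100a4 did, but through wild type no gene of this list was called. On the direct arrays S100a9 read 3.30 and 1.24 (adjusted p = 0.0473) and S100a8 3.50 and 1.03 (adjusted p = 0.0848). S100a13, a copper-binding protein of non-classical secretion, was lower in both (-0.56 and -0.57), and S100a1 was lower in Atg7 cKO (-0.38, adjusted p = 0.0472). The other call in Atg7 cKO was S100b (0.32), at a probe well above background in 4 of 24 channels and named after its values were seen. It was lower on the direct arrays (-2.46, adjusted p = 0.0235), and through wild type it read -0.31 (adjusted p = 0.0874). As for Anxa8, only the value through wild type carries the offset, so the 2 are not on the same scale.

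**Figure D4:**
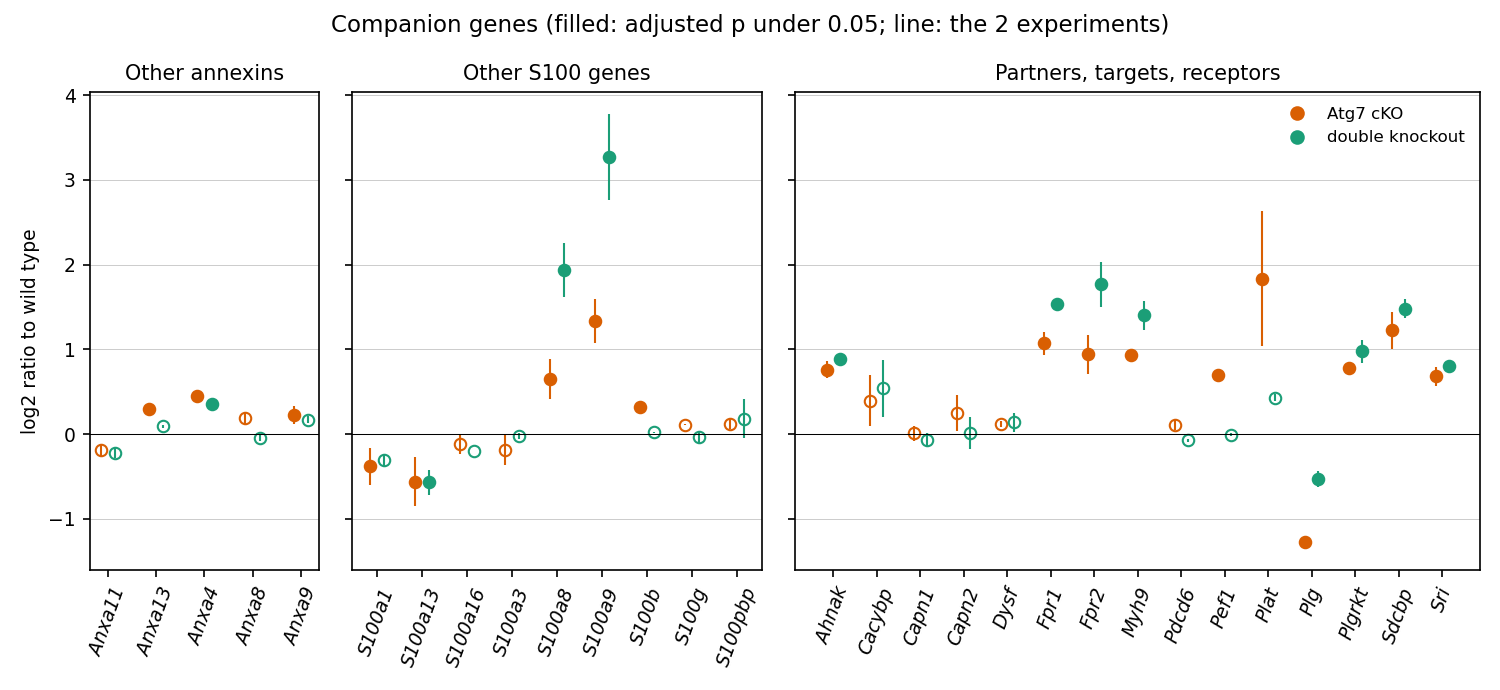
Log2 ratio to wild type of the other annexins, the other S100 genes and the partners, targets and receptors, in Atg7 cKO (orange) and the double knockout (green); points are means, lines join the 2 experiments, and filled points passed the test. S100a9 (3.27) and S100a8 (1.94) stand out among the S100 genes in the double knockout, and Plat is high in Atg7 cKO (1.83) and not called in the double knockout (0.43).

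Binding partners, targets and receptors of the family formed another list. Of 15 measured genes (Ager, a receptor for several S100 proteins, was not measured), 9 were higher and 1 lower in Atg7 cKO, and 7 higher and 1 lower in the double knockout, with medians of 0.70 and 0.54, where 39.4% and 37.1% of all genes were called. The formyl peptide receptors that bind Anxa1 were higher in both: Fpr1 read 1.07 (adjusted p = 0.00245) and 1.54 (adjusted p = 0.00103), and Fpr2 0.94 (adjusted p = 0.00955) and 1.77 (adjusted p = 0.00167). Sdcbp, syntenin, an adaptor of membrane traffic, read 1.23 and 1.48 (adjusted p = 0.00188 and 0.00118).

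The plasminogen system, which Anxa2 and S100a10 gather at the cell surface, split. Plat, tissue plasminogen activator, read 1.04 and 2.63 in Atg7 cKO (mean 1.83 ± 1.13, SD, n = 2; adjusted p = 0.0132), but 0.39 and 0.47 in the double knockout (adjusted p = 0.384). Directly compared Plat was lower (-1.38 and -3.16, adjusted p = 0.0294). Through wild type it was not called (-1.40, adjusted p = 0.191), whereas S100a10 was called lower by both routes. Plg, plasminogen, made by hepatocytes, was lower in both (-1.27 and -0.53), and it is named after its values were seen. On the direct arrays Plg (0.68) and Fpr2 (1.58) were higher, and Plat and Pef1, a penta-EF-hand calcium sensor, were lower (Pef1 -0.73, adjusted p = 0.00996). Through wild type Plg (0.74, adjusted p = 0.0357) and Pef1 (-0.70, adjusted p = 0.0114) were called too, but Fpr2 was not (0.83, adjusted p = 0.119). Against wild type Pef1 read 0.70 (Atg7 cKO) and -0.01 (double knockout), and it too is named after its values were seen.

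The cell type marker lists did not all move alike. Beside the counts of each list stand the shares over all genes. In Atg7 cKO 23.2% of all genes were called higher and 16.2% lower, and in the double knockout 21.2% and 15.9%. All 10 macrophage markers were measured and all were higher in both Atg7-deleted genotypes, with medians of 1.62 and 1.86, and none was called in Nrf2 KO. Their summed signal was 7005 to 9640 in the wild-type channels, 8701 and 9021 in Nrf2 KO, 28402 and 46020 for Atg7 cKO, and 59019 and 54424 for the double knockout. Between the double knockout and Atg7 cKO 1 of the 10, Marco, was called higher, both through wild type (1.09) and directly (1.44). Of all genes 1.75% were called higher through wild type and 6.72% directly.

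Stellate cell and fibroblast markers were higher for 6 of 8 in both genotypes, with a summed signal of 4546 to 5087 in wild type, 7417 and 8056 for Atg7 cKO and 7875 and 9408 for the double knockout. None of the 8 was called between those genotypes. Cholangiocyte markers were higher for 2 of 6 in both, with a summed signal of 884 to 1115 in wild type, 3664 and 3594 for Atg7 cKO and 4696 and 3953 for the double knockout. Of 6 hepatocyte markers 5 were lower in both, with a summed signal of 50459 to 79845 in wild type, 30720 and 32244 for Atg7 cKO and 25841 and 44761 for the double knockout. The 6 measured hepatocyte markers, Alb among them, were well above background in all 24 channels.

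Neutrophil markers were dim. Of 8 listed, Ly6g was not on the array, Elane was well above background in 0 channels and Ngp in 2, and the 5 measured summed to 296 to 317 in wild type, 313 and 376 for Atg7 cKO, and 357 and 428 for the double knockout. None of the 5 was called in Atg7 cKO and 2 were higher in the double knockout, where S100a8 and S100a9 were highest. Of 7 endothelial markers 2 were higher in Atg7 cKO, and 1 was higher and 3 lower in the double knockout. Of 6 lymphocyte markers 2 were higher in Atg7 cKO and 4 were in the double knockout. As above, 23.2% and 21.2% of all genes were called higher in these genotypes, and 15.9% lower in the double knockout. On the direct arrays S100a4 and S100a9 were called higher. There 4 of the 6 lymphocyte markers (Gzma, Cd3d, Cd8a and Nkg7, list median 1.04) and Cxcr2 of the neutrophil list (1.72) were higher too, beside 6.72% of all genes. Cd8a and Cxcr2 were dim, well above background in at most 7 and 6 of the 24 channels of experiments 1 to 6. Through wild type none of these markers was called. Lyve1 of the endothelial list was lower both directly (-1.56) and through wild type (-1.22), and Krt19 of the cholangiocyte list was lower directly (-0.72). The part of any of these cell types in the annexin and S100 ratios was not tested.

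Over the 8 experiments of the deposited value table, where ratios of dim genes are larger than those above, the genes with the profile nearest to that of Anxa2 by Euclidean distance were Acot9 (0.496), Col1a1 (0.661), Stil (0.677), Acot10 (0.71) and Espl1 (0.738). Acot9 and Acot10 are near-identical copies, so their probes may read the same RNA. Col1a1 encodes the main chain of type I collagen and read 2.64 and 2.71 for Atg7 cKO and 2.62 and 2.36 for the double knockout, beside 2.47, 2.62, 2.27 and 2.12 for Anxa2.

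Nearest to S100a6 were Pirb (0.429), Tspan13 (0.438), Spon1 (0.462), Igsf6 (0.474) and Itgam (0.604), of which Pirb, Igsf6 and Itgam are known as genes of myeloid cells. In experiments 7 and 8, which entered the distance, Pirb read 1.74 and 0.35 and Itgam 1.66 and 0.34, beside 1.78 and 0.14 for S100a6. Among the 10 genes themselves the closest pair was Anxa2 and Anxa5 (0.774), with 6 other genes nearer to Anxa2. S100a10 and its partner Anxa2 were no such pair: the gene of the 10 nearest to S100a10 was Anxa7 (1.78), with 227 other genes nearer. These distances rest on 8 points that share dye swaps, slides and possibly RNA, and they are given as a description.

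The dye orientations of an experiment can be set against each other as a check on the arrays. The sign of the ratio was the same in both orientations for 18 of 20 gene and experiment pairs of Atg7 cKO, 18 of 20 of the double knockout and 17 of 20 on the direct arrays, and for 14 of 20 in Nrf2 KO, where ratios lay near 0. The largest gap between orientations was 0.46, 0.65, 1.54 and 0.54 in that order.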

How the data were processed

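Liver RNA was read on 16 two-colour arrays. Per the file headers the scanner files of experiments 1 to 6 hold spot intensity (mean signal, median background) written by Agilent Feature Extraction, version 9.5.1.1 (the submitters' processing notes name 9.5.1), with probe coordinates on mm9. The deposited table of values holds log10 ratios of Cy5 over Cy3 for all 8 experiments. It differed from the scanner log10 ratio by at most 0.005 wherever both exist, and it alone was used for experiments 7 and 8.

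Intensities were corrected by normexp (offset 50) and normalised by loess within arrays in limma 3.58.1 (R 4.3.3, with the package data.table at version 1.17.8), without control and outlier-flagged spots. All ratios point from the partner to the knockout, with dye swaps averaged to 1 value per experiment. The brightest probe well above background in at least 4 of 24 channels stood for a gene, which gave 16674 genes. Experiments 1 to 6 entered a fit of 3 group means for everything measured against or through wild type, interaction included. The direct comparison came from a fit of 4 group means on the deposited log10 ratios, taken to log2. The fits had 3 and 4 residual degrees of freedom (prior 2.21 and 2.14), with Benjamini-Hochberg adjustment over all genes (0.05). The offset shrinks ratios of dim genes. Between 43.42% and 57.19% of spots were well above background, and the number of arrays limits the precision.

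RefSeq names were matched by accession (24844 of 41174 probes) or symbol (6045), and promoters come from GRCm38.p6, whose coordinates were not mixed with mm9. The 10 genes and all lists were chosen with earlier results of these data known. Named besides them are up to 4 genes per companion list (called, with the largest ratio in Atg7 cKO or the double knockout), the 5 nearest to Anxa2 and to S100a6, the targeted genes, and those stated as named after their values were seen, with markers called between the double knockout and Atg7 cKO. Alternatives were processed signals, offset 16, median centring, a filter of 12 channels, no filter, the mean of a gene's probes, slide or set as a block, values of that table, a fit of experiments 7 and 8 alone, and leaving out each experiment. Scripts were tested on simulated data.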

Additional observations from a re-analysis of the deposited data

Results flagged for a closer look

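Taken against wild type, the knockout effect was called different between Atg7 cKO and the double knockout for 4 of the 10 genes (limma, adjusted p under 0.05, n = 2 experiments per group). Over all genes 4.96% were called, 1.75% as higher and 3.21% as lower. S100a10 fell by 1.76 on the log2 scale (adjusted p = 0.0201), with lower ratios in the double knockout in both sets, and its adjusted p ranged from 0.00488 to 0.0705 over 15 alternatives. S100a4 was higher by 1.56 (adjusted p = 0.0262, range 0.0224 to 0.109). Anxa7 fell by 0.72 (adjusted p = 0.0313, range 0.0274 to 0.171), at 1 of its 3 probes. Anxa5 fell by 0.53 (adjusted p = 0.0265, range 0.022 to 0.154). Of the 15 alternatives, the call was lost in 3 for S100a10, 8 for S100a4, 10 for Anxa7 and 11 for Anxa5. The direct arrays gave the same directions, at -1.77, 1.89, -0.92 and -0.61.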

How the results depend on the processing

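No called result changed sign under any setting run. For single genes, 463 of 490 results under other settings kept their side of the threshold, 21 lost a call and 6 gained one. With an experiment left out, 349 of 380 kept it, 30 lost and 1 gained a call. The difference through wild type was the least stable: 4 of the 10 genes were called, but 1 with processed signals, 2 with median centring, 1 with slide as a block, 1 with the value table, and 0 to 2 with an experiment left out. Its count over all genes was 827, and 216, 379, 199 and 340 under those settings, 1424 with the set as a block, and 81 to 386 with an experiment left out. The interaction gave 120 genes, and 5 with processed signals, 66 with median centring, 0 with slide as a block, 329 with the set as a block (1 of the 10), 25 with the value table and 2 to 63 with an experiment left out. The direct comparison gave 2465 genes and 5 of the 10, but 107 and 0 from experiments 7 and 8 alone, and 307 to 1864 genes and 1 to 5 of the 10 with an experiment left out (lowest without experiment 7). Nrf2 KO gave 2 genes, and 0 with median centring (651 at an unadjusted p under 0.05), 1 with no filter, 4 with slide as a block, 11 with the set as a block and 0 to 2 with an experiment left out. Atg7 cKO gave 6571 genes and 3205 to 5952 with an experiment left out (lowest without experiment 5). The double knockout gave 6186 genes, and 2855 without experiment 3, 3425 without experiment 6 and up to 6231 otherwise. Genes called higher were 58.9% of those called in Atg7 cKO (48.6% with processed signals or the value table, 90.7% with median centring), 57.2% in the double knockout (46.5%, 46.9% and 85.7%) and 35.2% through wild type (23.1%, 26.2% and 13.7%). Median centring moved the median of all genes by 0.21 (Atg7 cKO) and 0.14 (double knockout). Except where fewer experiments or genes entered, the cause was not tested. S100a11 lost its direct call in 8 of 12 alternatives, Anxa5 in 3, Anxa7 in 3, S100a4 in 2 and S100a10 in 1. No paired analysis by experiment number was possible because the labels give the groups no shared one. The main fit was left without a block. Matching by set or by slide was possible, and the blocked fits and the differences within each set above use it. All 10 genes were well above background in the 24 channels of experiments 1 to 6 (experiments 7 and 8 were not assessed), so signal over background limits the dim companion lists more than these genes.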
